A study of Mus musculus with 12 samples.

Results

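The genes described here encode the constant regions of mouse antibodies, together with Jchain, whose product joins antibody units into polymers. They were taken by gene symbol from the raw count table, as the rows Ighm, Ighd, Ighg1, Ighg2b, Ighg2c, Ighg3, Igha, Igkc, Iglc1 and Jchain, which are 10 of its 28188 rows. RNA of splenic B cells and of splenic dendritic cells, from mice aged 12 weeks, was extracted with Trizol, poly(A)-selected and sequenced. NOD mice, a strain that develops autoimmune diabetes spontaneously, were the controls, and NOD.Idd2 mice carry the diabetes locus Idd2 of B10 origin on that background. Each strain gave 3 B cell and 3 dendritic cell libraries, which makes 4 groups and 12 libraries. No treatment is given for any group, and the labels do not say how the cells were isolated, nor whether the libraries of a group come from separate animals, so that p-values here reflect no more than the spread among these libraries, which may be technical.

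An antibody is built from paired heavy and light chains, each with a variable region that binds antigen and a constant region. The constant region of the heavy chain sets the class of the antibody. Naive B cells make IgM and IgD from the same rearranged gene, by splicing and ending the transcript in different ways, and display both on their surface. After activation, class switch recombination replaces the IgM and IgD exons by those of an IgG subclass, IgE or IgA. Light chains are of the kappa or the lambda type, and most mouse B cells carry kappa. Plasma cells, the secreting end stage, make far more antibody mRNA per cell than resting B cells, and make J chain for the polymers of IgM and IgA.

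The coding sequences of related constant genes are alike enough that the way reads were assigned bears on their counts, and 2 stretches that tell them apart are shown. The hinge exon, which links the antigen-binding arms of IgG to its stem, differs in length between the 4 IgG subclass genes. The hinge exons below come from the GENCODE transcripts of the GRCm38 reference, not from NOD mice. They are written 5′ to 3′ on the coding strand, with in-frame cysteine codons in capitals. They lie on the minus strand, at chr12:113329844-113329882 for Ighg1, chr12:113307261-113307326 for Ighg2b, chr12:113288263-113288325 for Ighg2c and chr12:113360529-113360576 for Ighg3.
Ighg1: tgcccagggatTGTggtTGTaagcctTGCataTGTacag
Ighg2b: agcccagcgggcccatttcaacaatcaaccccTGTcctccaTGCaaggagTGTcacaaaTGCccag
Ighg2c: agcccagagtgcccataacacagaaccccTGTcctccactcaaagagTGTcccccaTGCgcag
Ighg3: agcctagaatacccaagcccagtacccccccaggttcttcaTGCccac
The exons hold 39, 66, 63 and 48 bases with 4, 4, 3 and 1 cysteine codons. Over the whole coding sequence, Ighg2b and Ighg2c are identical at 85.6% of aligned positions, with a longest shared run of 78 bases, and the other pairs of IgG genes at 73.9% to 75.5%.

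The lambda genes are shown because the lambda value below is that of Iglc1 alone. The first 60 coding bases are written in the same way, with capitals where Iglc2 or Iglc3 differs from Iglc1. They lie on the minus strand at chr16:19062012-19062071 for Iglc1, chr16:19198793-19198852 for Iglc2 and chr16:19065622-19065681 for Iglc3.
Iglc1: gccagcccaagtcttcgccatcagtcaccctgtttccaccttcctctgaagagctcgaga
Iglc2: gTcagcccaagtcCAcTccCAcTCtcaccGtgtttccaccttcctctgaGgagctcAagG
Iglc3: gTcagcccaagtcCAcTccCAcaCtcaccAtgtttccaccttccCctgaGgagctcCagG
Iglc2 and Iglc3 each differ from Iglc1 at 12 of these 60 bases. They are identical to each other at 96.2% of their coding sequence, with a longest shared run of 79 bases, so reads could be split between them, whereas Iglc1 is identical to them at 73.4% and 74.2%. The reference also places Igkc, at chr6:70726435-70726966 on the plus strand, inside the span of the noncoding gene Gm30211 on the same strand. Iglc1 lies inside the span of 2010309G21Rik on the opposite strand. No source used here says whether strand was used in counting.

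Library totals ran from 40344883 to 44632276 counts for B cells and from 8663421 to 30337812 for dendritic cells, the shallowest being NOD.Idd2 dendritic cell replicate 3. The 10 genes took 1.11% to 1.39% of the counts in B cell libraries and 0.0582% to 0.142% in dendritic cell libraries. The labelled cell types carried their defining transcripts: 14 B cell marker genes summed to 20263 to 21056 CPM (counts scaled by library size) in B cells and 721 to 792 CPM in dendritic cells, and 10 dendritic cell marker genes to 243 to 256 CPM and 4558 to 5014 CPM. Within the B cell list, the defining gene Cd79a was at 1.75 to 7.31 CPM in dendritic cell libraries. The female transcript Xist was at 1560 to 2103 CPM in B cells, while dendritic cell libraries held 1 to 4 counts of it. The Y-linked gene Ddx3y was at 0 counts and at 235 to 306 CPM. Cell type and sex therefore cannot be told apart. These are bulk samples, in which fewer cells of a type and less RNA per cell cannot be told apart either.

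In B cells of both strains the kappa gene Igkc stood highest per length, followed by Ighm, Ighd, Iglc1, Jchain and then the switched isotypes. Per kilobase of exon, NOD B cells carried 5074 ± 1068 CPM of Igkc, 3645 ± 389 of Ighm, 1096 ± 76.4 of Ighd, 244 ± 61.9 of Iglc1 and 69.2 ± 11.6 of Jchain (SD, n = 3). None of these neighbours in the order overlapped between their libraries. The switched genes followed at 29.3 ± 9.30 CPM per kilobase for Igha, 27.2 ± 3.73 for Ighg2b, 15.04 ± 9.06 for Ighg1, 7.03 ± 1.49 for Ighg3 and 6.74 ± 3.07 for Ighg2c, and here each gene overlapped its neighbour. NOD.Idd2 B cells kept the order of the upper 5 genes. Among their switched genes Ighg1 was lowest, at 7.31 ± 0.192 CPM per kilobase, below Ighg3 at 13.1 ± 3.13 with no overlap. The IgE gene Ighe was at 0.161 to 0.489 CPM in B cells of both strains.

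**Figure D1:**
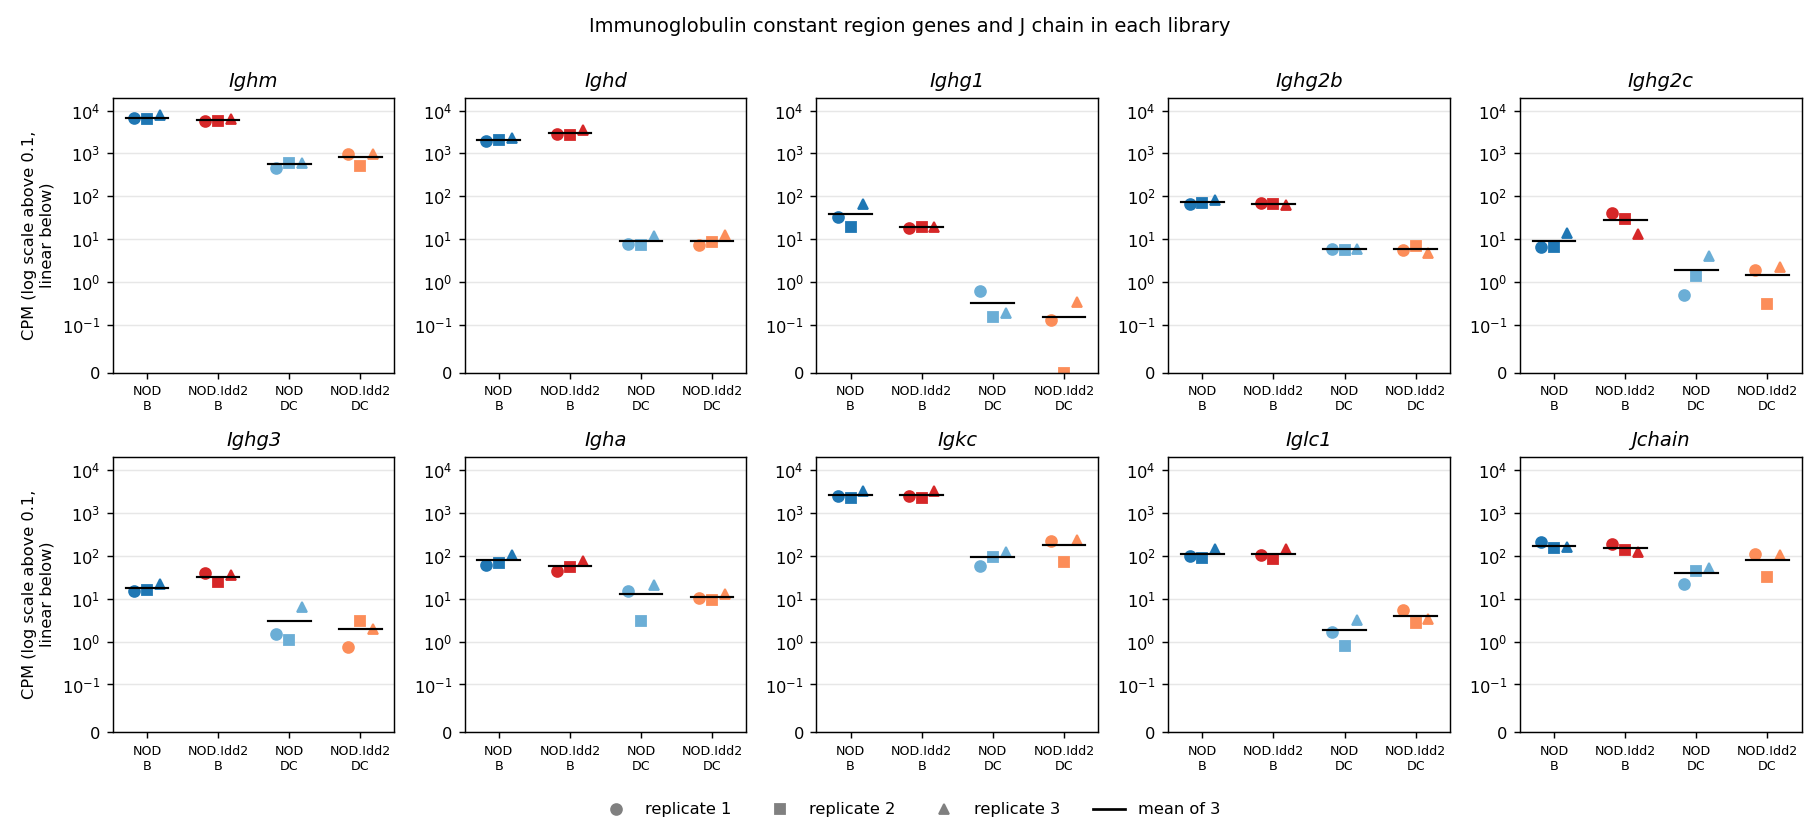
Level of each of the 10 genes in every library, in CPM on an axis that is logarithmic above 0.1 and linear below. Points are libraries with the shape giving the replicate number, and the black line is the mean of 3. In B cells Ighd and Ighg3 lie higher in all NOD.Idd2 than in all NOD libraries, and in dendritic cells Ighm, Igkc and Jchain lie high in NOD.Idd2 replicates 1 and 3.

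The comparison of the strains in B cells asks whether antibody transcripts differ between NOD and NOD.Idd2 in the cells that make them. It cannot tell the Idd2 locus apart from any other difference between the strains. None of the 10 genes passed edgeR's quasi-likelihood test (adjusted by Benjamini-Hochberg over all 15011 genes tested), of which 0.160% were called at an adjusted p of 0.05. At an unadjusted p under 0.05 there were 4 of the 10 (Ighd, Ighg1, Ighg2c and Ighg3), and 961 of all 15011 genes. DESeq2 called 1 of the 10, Ighd. The labels state no pairing of the B cell libraries, and a block by replicate number was taken from correlated deviations in these same data. Those set replicate 3 apart but do not tell replicates 1 and 2 apart, which limits all values with the block. With it edgeR called 3 of the 10, where 1.04% of all genes were called. These were Ighd and Ighg3, higher in NOD.Idd2, and Igha, lower. The median log2 fold change, NOD.Idd2 minus NOD, was -0.08 over the 10 genes and 0.01 over all genes.

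IgD transcripts were higher in every NOD.Idd2 B cell library than in any NOD library. Ighd, which encodes the heavy chain constant region of IgD, was at 1947, 2062 and 2236 CPM in NOD B cells and at 2890, 2663 and 3510 CPM in NOD.Idd2 B cells. All 3 NOD.Idd2 libraries lay above all 3 NOD libraries, and replicate 3 was the highest of each strain. The difference was 1.46-fold, with a 95% interval of 1.22 to 1.75, or 0.55 on the log2 scale with an SE of 0.11. Its adjusted p was 0.364 without the block and 4.72e-04 with it, and 8.29e-05 in DESeq2. Leaving out both replicate 3 B cell libraries gave a log2 fold change of 0.48 with an adjusted p of 0.0251 in edgeR, an alternative added after the data were seen.

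Ighm, which encodes the heavy chain constant region of IgM and shares its primary transcript with Ighd, had a difference of the other sign. It was at 6679, 6259 and 7686 CPM in NOD B cells and at 5799, 5643 and 6383 CPM in NOD.Idd2. These ranges overlapped, with NOD.Idd2 replicate 3 above NOD replicate 2. The log2 fold change was -0.20 with an SE of 0.09, and edgeR's adjusted p was 0.780. Ighd as a share of Ighm plus Ighd counts was 22.6%, 24.8% and 22.5% in NOD and 33.3%, 32.1% and 35.5% in NOD.Idd2, without overlap. The means were 23.3% ± 1.29 and 33.6% ± 1.74 (SD, n = 3), a difference of 10.3 percentage points, and the 2-sided exact permutation p was 0.1, the smallest that 3 against 3 libraries allow. The Wilson 95% interval of each library's share was narrow, 22.4% to 22.7% for NOD replicate 1, and covers counting error only.

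Zfp318 encodes a zinc finger protein that mouse B cells need to read through to the IgD exons, and it belongs to a list of 17 genes of immunoglobulin transcription and mRNA processing. At chr17:46383731-46420920 on the plus strand, it was at 407, 404 and 480 CPM in NOD B cells and at 611, 653 and 711 CPM in NOD.Idd2 B cells. Every NOD.Idd2 library lay above every NOD library, as for Ighd. The log2 fold change was 0.62 with an SE of 0.09, and edgeR's adjusted p was 0.0978 without the block and 3.84e-06 with it. Without single libraries the adjusted p ran from 0.0513 to 0.462, DESeq2 gave 3.59e-12 and an edgeR fit of all 12 libraries gave 1.96e-03. In dendritic cells Zfp318 was at 58.6 to 65.5 CPM in NOD and 61.7 to 66.1 CPM in NOD.Idd2, and these ranges overlapped. The strain difference was smaller in dendritic cells than in B cells by 0.58 on the log2 scale, with an adjusted p in edgeR of 0.102 without and 3.49e-03 with the block. The other 16 genes of the list were not called in B cells, with or without the block. Zfp318 was chosen after its values were seen, and its part in the Ighd difference was not tested.

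**Figure D2:**
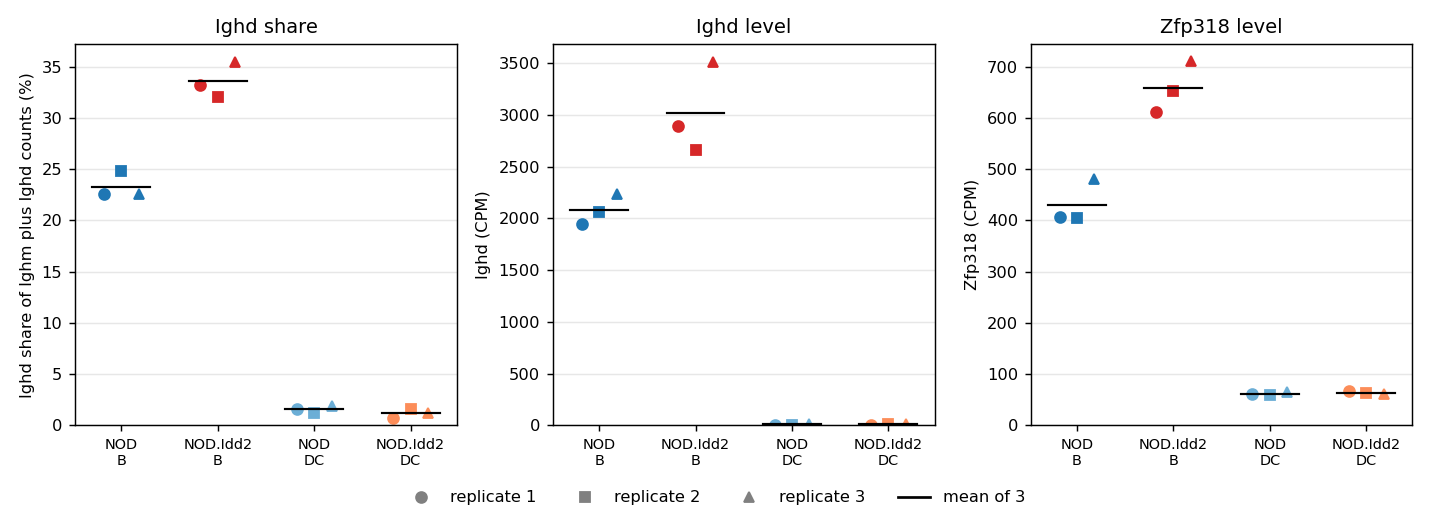
Ighd share of Ighm plus Ighd counts in percent (left), Ighd in CPM (middle) and Zfp318 in CPM (right), for each library of the 4 groups. Points are libraries with the shape giving the replicate number, and lines are means of 3. In B cells all 3 panels show NOD.Idd2 above NOD without overlap, and in dendritic cells the strains overlap in each.

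The switched classes made up a small part of heavy chain constant counts in B cells, and their sum did not separate the strains. Ighg1, Ighg2b, Ighg2c, Ighg3 and Igha together took 2.04%, 2.11% and 2.85% in NOD and 2.37%, 2.28% and 2.03% in NOD.Idd2. The means of 2.33% ± 0.450 and 2.23% ± 0.178 (SD, n = 3) gave a 2-sided exact permutation p of 0.8. The differences of the single genes within this sum had different signs.

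Ighg2c, whose class is typical of responses driven by interferon gamma, was at 6.64, 6.53 and 13.6 CPM in NOD B cells and at 40.8, 29.7 and 13.3 CPM in NOD.Idd2. Replicates 1 and 2 of NOD.Idd2 stood above all others, and the 2 replicate 3 libraries were nearly equal. The log2 fold change was 1.65 with an SE of 0.46, a 3.14-fold difference with a 95% interval of 1.49 to 6.63, and edgeR's adjusted p was 0.711. Neither DESeq2 nor edgeR with the block called Ighg2c. Without both replicate 3 libraries the log2 fold change was 2.43, with an adjusted p of 1.43e-04 in edgeR. This alternative was added after the data were seen, and it leaves out the 2 libraries that were nearly equal.

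Ighg3, an IgG subclass made against polysaccharides, was at 15.3, 15.7 and 22.0 CPM in NOD and at 39.5, 24.2 and 35.0 CPM in NOD.Idd2. The strains did not overlap. The log2 fold change of 0.91 had an SE of 0.21, and edgeR's adjusted p was 0.540 without the block and 3.09e-03 with it. Ighg1, the subclass favoured by interleukin-4, lay the other way, at 32.4, 19.5 and 65.1 CPM in NOD against 18.5, 18.8 and 19.5 CPM in NOD.Idd2. NOD replicate 3 stood far above the rest, while NOD replicate 2 lay only just above the highest NOD.Idd2 library. Its log2 fold change was -1.03 with an SE of 0.39, and edgeR's adjusted p was 0.758 without and 0.0938 with the block. Without NOD replicate 3 the log2 fold change of Ighg1 was -0.44.

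Igha, the heavy chain gene of the mucosal class IgA, was at 60.4, 67.8 and 107 CPM in NOD and at 43.4, 54.1 and 75.0 CPM in NOD.Idd2. The strains overlapped, but each NOD.Idd2 library lay below the NOD library of the same number. The log2 fold change was -0.43 with an SE of 0.27, and edgeR's adjusted p was 0.840 without and 4.65e-04 with the block. Ighg2b, the IgG gene with the highest mean per kilobase in both strains, was at 64.6 to 84.0 CPM in NOD and 62.0 to 68.8 CPM in NOD.Idd2, with a log2 fold change of -0.14 and an adjusted p of 0.876 in edgeR.

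**Figure D3:**
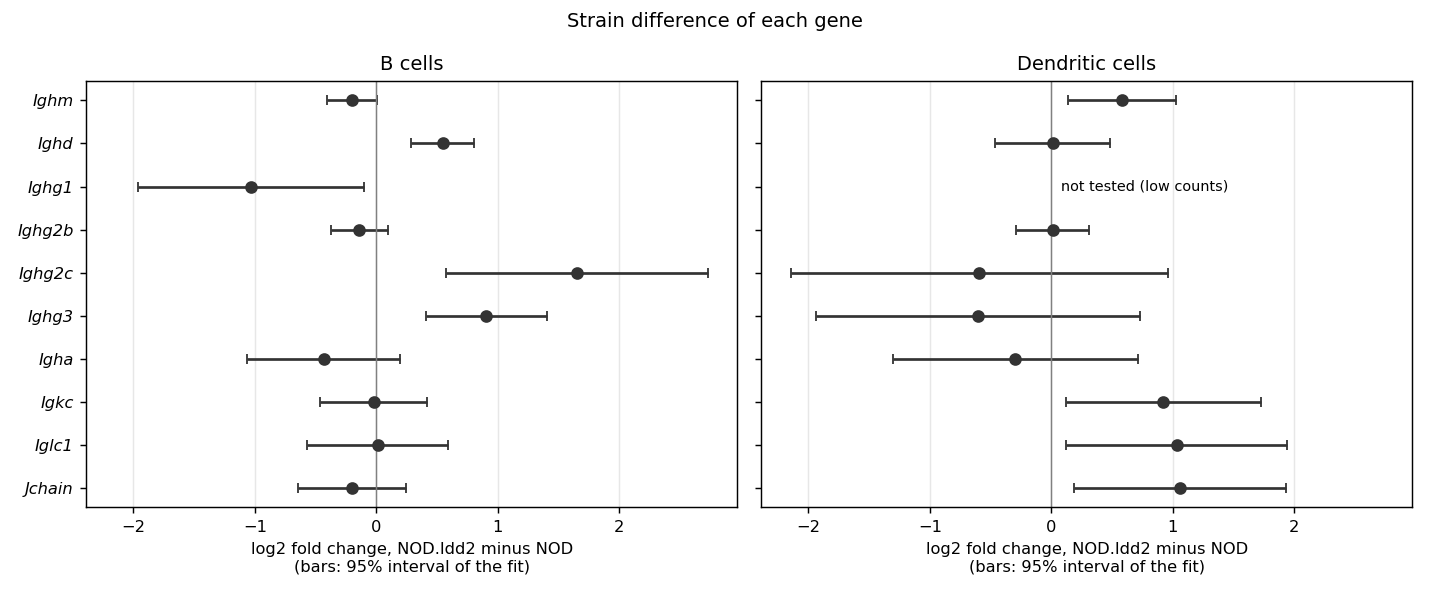
Log2 fold change, NOD.Idd2 minus NOD, of each gene in B cells (left) and dendritic cells (right), with the 95% interval of edgeR's fit as bars and n = 3 libraries a group. In B cells the intervals of Ighd, Ighg2c and Ighg3 lie above 0 and that of Ighg1 below, and in dendritic cells those of Ighm, Igkc, Iglc1 and Jchain lie above 0, before adjustment over all genes.

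The light chain genes and Jchain gave B cell values near those of the other strain. Igkc, the kappa constant gene, was at 2510, 2250 and 3338 CPM in NOD and at 2472, 2202 and 3237 CPM in NOD.Idd2. Iglc1 was at 98.4, 91.4 and 143 CPM and at 104, 82.9 and 147 CPM. For both genes replicate 3 was the highest of either strain and the strains overlapped. Their log2 fold changes were -0.02 and 0.01, with 95% intervals on the fold scale of 0.724 to 1.34 and 0.674 to 1.51. Jchain was at 207, 152 and 164 CPM in NOD and at 193, 137 and 121 CPM in NOD.Idd2, with a log2 fold change of -0.20, an SE of 0.19 and an adjusted p of 0.921 in edgeR.

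Iglc1 held 3.93% ± 0.172 of Igkc plus Iglc1 counts in NOD and 3.995% ± 0.352 in NOD.Idd2 B cells (SD, n = 3), with a 2-sided exact permutation p of 0.9. With Iglc2 and Iglc3 added, the lambda share was 23.6% ± 0.747 and 23.9% ± 1.16. The replicate 3 libraries of both strains also stood apart in another ratio of kappa transcripts. Counts on 141 kappa variable segments were 37.2 and 38.1 per 100 Igkc counts in replicate 3, and 54.5 to 55.2 in the other B cell libraries. The part of this in the results above was not tested, beyond the values given without replicate 3.

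The genes that carry out switching were not called in B cells. All 22 tested genes of class switch recombination and hypermutation missed the threshold, with a median log2 fold change of 0.05 against 0.01 for all genes. None of 20 genes of switch signals and isotype regulators and none of 10 germinal centre genes was called, with or without the block. Of 21 genes of antibody assembly in the endoplasmic reticulum, 0 were called without the block and 1 with it: Hsp90b1, a chaperone, had a log2 fold change of -0.22 and an adjusted p of 0.0145. None of 14 B cell and none of 10 plasma cell marker genes was called in B cells, and the plasma cell list summed to 479 to 516 CPM in NOD and 460 to 497 CPM in NOD.Idd2.

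The comparison of cell types shows how much antibody RNA the dendritic cell libraries carried. In NOD, all 10 genes were lower in dendritic cells than in B cells by edgeR's quasi-likelihood test (Benjamini-Hochberg adjusted), where 76.4% of 16588 genes were called and 38.7% were called lower. In NOD.Idd2, 9 of 10 were lower, where 75.7% were called and 38.9% called lower. The exception was Jchain, 1.85-fold lower with a 95% interval of 1.01 to 3.41 and an adjusted p of 0.0616, or 0.0391 with the block.

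The sizes differed widely among the 10 genes. Ighd in dendritic cells was at 0.426% of its mean in B cells in NOD and 0.308% in NOD.Idd2, beside the B cell markers Cd79a at 0.264% and 0.156% and Ms4a1 at 0.501% and 0.401%. Not all of the 14 B cell markers were as low. Cd22 was at 404 to 453 CPM in dendritic cells and 1821 to 2139 CPM in B cells, and Spib at 78.9 to 106 and 730 to 841 CPM. The lambda genes Iglc2 and Iglc3, which are not among the 10, were at 0.369% to 0.582%. Ighm was at 8.05% and 13.8%, Igkc at 3.42% and 6.65%, Igha at 16.7% and 18.9%, and Jchain at 22.5% and 54.7%. Ighm and Ighd, which share a primary transcript in naive cells, thus differed from each other in how far they were lower. Ighd made up 1.58% ± 0.324 of Ighm plus Ighd counts in NOD dendritic cells and 1.19% ± 0.428 in NOD.Idd2 (SD, n = 3), against the 23.3% and 33.6% of the B cells.

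**Figure D4:**
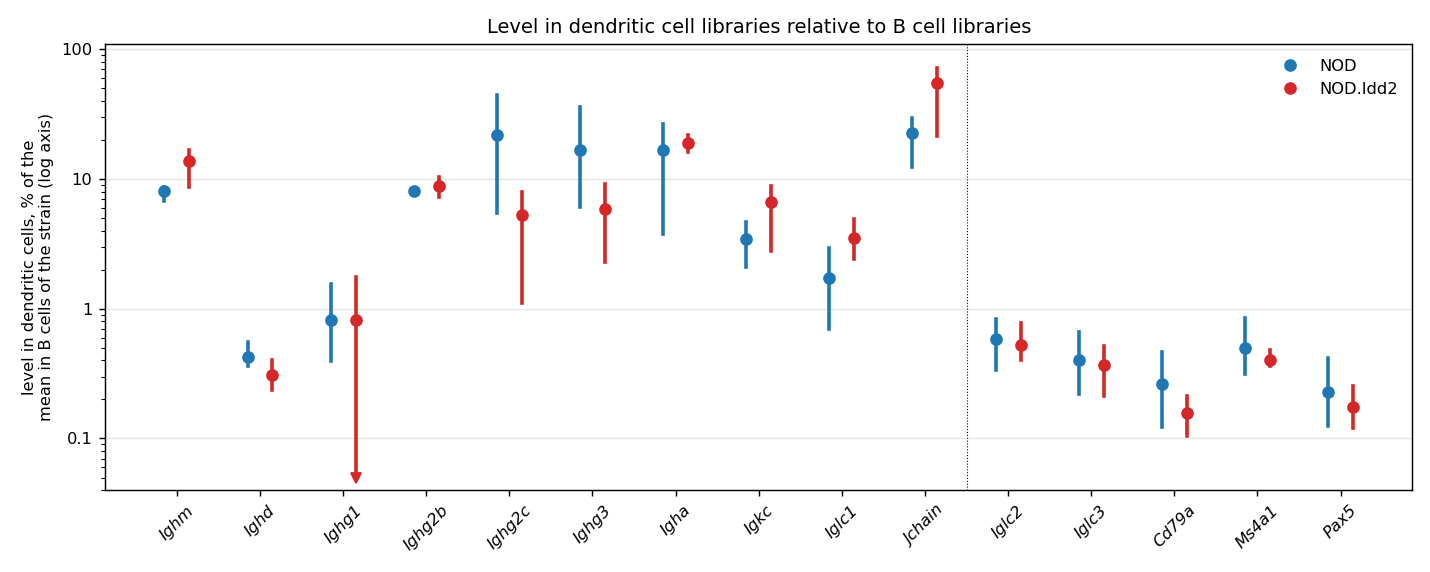
Mean level in dendritic cells as a percentage of the mean level in B cells of the same strain, on a log axis, for the 10 genes (left of the dotted line) and for other lambda genes and B cell markers (right). Bars run from the lowest to the highest of 3 dendritic cell libraries over the B cell mean, and the arrow marks a library with 0 counts. Ighd lies below 1% with Cd79a, Ms4a1 and Pax5, while the means of Ighm, Igha and Jchain lie between 8.05% and 54.7%. Other B cell markers, among them Cd22 and Spib, lie higher and are not plotted.

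Jchain was also high relative to kappa in dendritic cell libraries. Per 100 Igkc counts, Jchain had 38.0, 47.3 and 40.7 counts in NOD dendritic cells and 50.0, 43.5 and 45.2 in NOD.Idd2. In B cells it had 8.25, 6.74 and 4.91 in NOD and 7.81, 6.24 and 3.73 in NOD.Idd2. All 6 dendritic cell libraries lay above all 6 B cell libraries. Per kilobase, Ighm was the highest of the 10 genes in dendritic cells, with 293 ± 38.8 CPM for NOD and 434 ± 139 CPM for NOD.Idd2 (SD, n = 3). Ighm made up 94.4% ± 2.31 and 96.3% ± 1.26 of heavy chain constant counts, and the switched isotypes 4.13% ± 2.04 and 2.56% ± 0.885, with a 2-sided exact permutation p of 0.4 between strains.

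Plasma cell markers in the dendritic cell libraries were mixed. The list of 10 summed to 673 to 725 CPM, of which Slamf7, 457 to 502 CPM, and Xbp1, 111 to 139 CPM, made up most. Sdc1, the surface proteoglycan CD138, was at 0.412 to 1.37 CPM, against 17.1 to 24.98 CPM in B cells. Mzb1, a chaperone for IgM assembly, was at 0.309 to 1.90 CPM, and Tnfrsf17, the receptor BCMA, at 0 to 0.177 CPM. The part of such cells in these levels was not tested.

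In dendritic cells the strain comparison called none of the 9 genes tested in edgeR with Benjamini-Hochberg adjustment, where 1.29% of 14441 genes were called; Ighg1 had too few counts to enter, 24 in NOD and 6 in NOD.Idd2 over 3 libraries. At an unadjusted p under 0.05 there were 4 of the 9, Ighm, Igkc, Iglc1 and Jchain, all higher in NOD.Idd2, and 1638 of all 14441 genes. DESeq2 called 0 of the 9. The median log2 fold change was 0.01 over the 9 genes and 0.0006 over all genes.

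Those 4 genes did not separate the strains. Ighm was at 469, 592 and 599 CPM in NOD dendritic cells and at 948, 517 and 992 CPM in NOD.Idd2. Igkc was at 56.8, 94.8 and 126 CPM and at 217, 73.8 and 235 CPM. Jchain was at 21.6, 44.8 and 51.2 CPM and at 108, 32.1 and 106 CPM. In all 3 genes replicates 1 and 3 of NOD.Idd2 stood above every other dendritic cell library, and NOD.Idd2 replicate 2 lay within the NOD range. Iglc1 was at 1.66, 0.772 and 3.27 CPM in NOD and at 5.48, 2.68 and 3.46 CPM in NOD.Idd2.

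The log2 fold changes were 0.58 for Ighm, 0.92 for Igkc, 1.03 for Iglc1 and 1.06 for Jchain, and edgeR's adjusted p-values ran from 0.266 to 0.356. These calls turned on single libraries. Without NOD.Idd2 replicate 2, edgeR called Ighm with an adjusted p of 2.68e-03, Igkc with 0.0346 and Jchain with 0.0302, and without NOD replicate 3 it called Iglc1 with 0.0411. Without the filter on low counts it called all 4, at nearly the same log2 fold changes. Calls over all genes then rose from 186 to 700.

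The heavy chain and kappa variable segments followed the same pattern, and the lambda segments did not. The 146 heavy chain variable segments summed to 31.8, 55.1 and 62.6 CPM in NOD and to 124, 38.4 and 134 CPM in NOD.Idd2, and the 141 kappa segments to 36.5, 67.4 and 78.0 CPM and to 161, 49.3 and 164 CPM. Sdc1 was at 0.446, 0.501 and 0.731 CPM and at 1.37, 0.412 and 1.34 CPM, on 11 to 31 counts a library. Here too replicates 1 and 3 of NOD.Idd2 were highest. Of the plasma cell list, Mzb1 and Tnfrsf17, both low, shared this order, and the others did not. Replicate 2 was the highest of NOD.Idd2 for Prdm1 (15.7, 15.9 and 13.3 CPM), Xbp1 (136, 139 and 132 CPM) and Tent5c (63.8, 71.3 and 57.6 CPM). Of 8 tested plasma cell genes 7 had a log2 fold change above 0 and 0 were called. The 3 lambda variable segments summed to 4.62, 2.01 and 6.54 CPM in NOD and to 6.89, 4.57 and 4.46 CPM in NOD.Idd2, where replicate 3 was the lowest of its strain. Ighd and the B cell marker Ms4a1 were arranged otherwise: Ighd was at 7.57, 7.48 and 11.6 CPM in NOD and at 7.20, 8.46 and 12.3 CPM in NOD.Idd2, and Ms4a1 at 8.95, 8.22 and 22.5 CPM and at 9.67, 9.66 and 12.7 CPM. For both genes replicate 3 was the highest of each strain. Not all B cell markers shared that order: Cd22 was at 422, 453 and 404 CPM in NOD and at 409.7, 406 and 411 CPM in NOD.Idd2. The sum of the 14 B cell markers, 723 to 792 CPM in NOD and 721 to 738 CPM in NOD.Idd2, overlapped, and the part of any of these values in the strain difference was not tested.

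**Figure D5:**
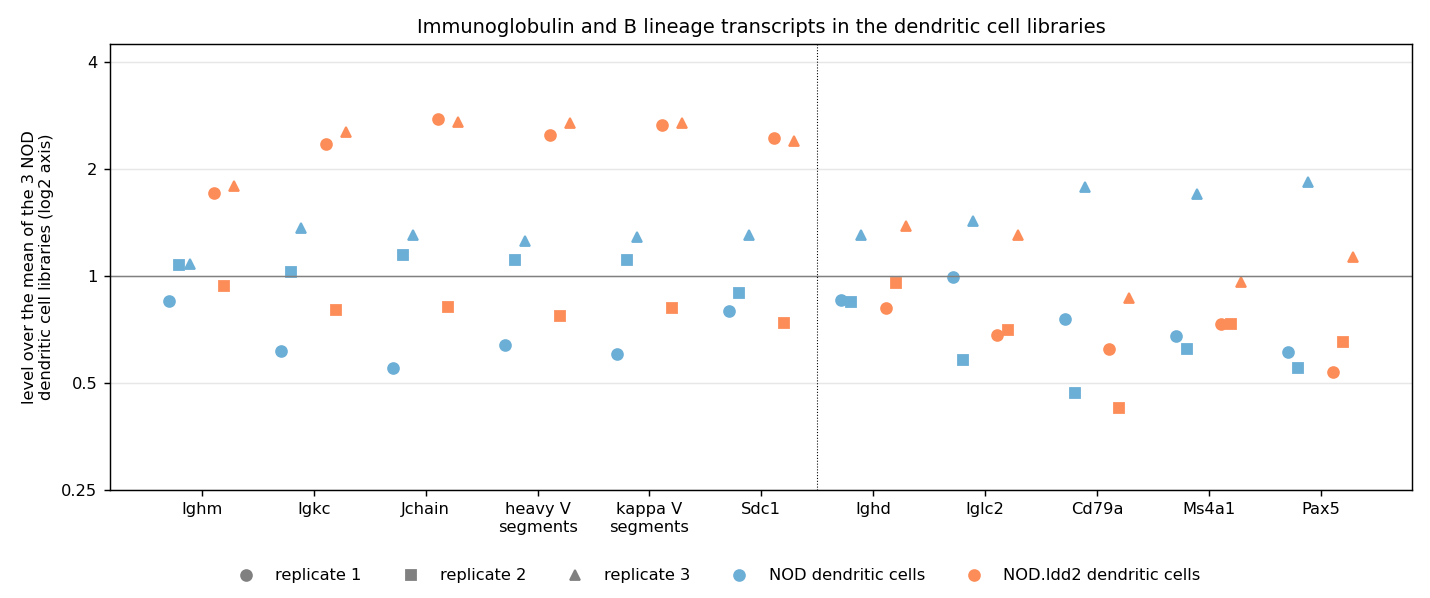
Level in each dendritic cell library divided by the mean of the 3 NOD dendritic cell libraries, on a log2 axis, with the shape giving the replicate number. Left of the dotted line, Ighm, Igkc, Jchain, the sums of variable segments and Sdc1 are high in NOD.Idd2 replicates 1 and 3, and right of it Ighd, Iglc2, Cd79a, Ms4a1 and Pax5 are not. The genes on either side were chosen after their values were seen.

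The remaining genes gave small or scattered strain differences in dendritic cells. Ighg2b was at 5.63 to 6.04 CPM in NOD and 4.80 to 6.84 CPM in NOD.Idd2. Ighg2c, Ighg3 and Igha ranged over 0.309 to 4.0, 0.751 to 6.31 and 2.97 to 20.7 CPM, the strains overlapped for each, and their log2 fold changes of -0.59, -0.61 and -0.30 had SEs of 0.71, 0.61 and 0.46. Among 11 tested genes of antibody transport and Fc receptors, edgeR called 2 higher and 0 lower in NOD.Idd2 dendritic cells. Cd300lf of the same list, a receptor of the CD300 family, was at 359.5, 397 and 292 CPM in NOD and at 278, 283 and 248 CPM in NOD.Idd2, without overlap. Its adjusted p was 0.0842 in edgeR and 2.05e-03 in DESeq2. Without single libraries it ran in edgeR from 8.48e-04, without NOD replicate 3, to 0.354. Pigr, the receptor that carries polymeric IgA and IgM across epithelia, was at 1.90, 1.5 and 2.35 CPM in NOD and at 4.95, 5.5 and 6.03 CPM in NOD.Idd2, without overlap. Its log2 fold change was 1.5 with an SE of 0.20 and an adjusted p of 2.74e-03 in edgeR.

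Fcgr2b, the inhibitory receptor for IgG, was at 50.1, 44.1 and 51.8 CPM and at 78.1, 84.3 and 69.1 CPM, without overlap. Its log2 fold change was 0.67 with an SE of 0.07 and an adjusted p of 6.76e-04 in edgeR. In B cells Fcgr2b was at 318 to 327 CPM in NOD and 303 to 332 CPM in NOD.Idd2. The strain difference of Fcgr2b differed between the cell types, with an adjusted p of 0.0232 in edgeR's fit of all 12 libraries. Some dendritic cell and monocyte markers were also higher in every NOD.Idd2 dendritic cell library, but their lists were mixed. Of 10 dendritic cell genes 0 were called and 6 lay above 0, with a median log2 fold change of 0.06. For 7 monocyte genes these values were 0, 5 and 0.37, and for 7 tested plasmacytoid genes 1, 5 and 0.19. Cd209d, a lectin gene on the plasmacytoid list, was at 10.9 to 13.2 CPM in NOD and 18.7 to 19.6 CPM in NOD.Idd2, with an adjusted p of 5.42e-03 in edgeR, or 0.0519 without NOD.Idd2 replicate 1 and 0.363 in the fit of all 12 libraries. The lectin gene Cd209a was at 284 to 359.7 CPM in NOD and 366 to 450.4 CPM in NOD.Idd2, Clec10a at 24.6 to 39.0 and 43.4 to 52.0 CPM, and the monocyte receptor gene Ccr2 at 191 to 302 and 353 to 376 CPM. Their adjusted p-values in edgeR were 0.0757, 0.0609 and 0.0515. DESeq2 called Cd209a with 3.14e-03 and Clec10a with 6.93e-04. Without single libraries, edgeR's adjusted p ran from 0.0467 to 0.410 for Cd209a and from 1.97e-03 to 0.340 for Clec10a. For Ccr2 it ran from 5.91e-04, without NOD replicate 1, to 0.252. The part of such cells in the Pigr and Fcgr2b values was not tested. Of the other antibody pathway lists, that of class switch recombination and hypermutation had 1 of 21 tested genes higher, the polymerase gene Polh, but without single libraries its adjusted p in edgeR reached 0.215. None of 17 genes of immunoglobulin transcription and mRNA processing and none of 21 of antibody assembly was called.

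Whether the strain difference itself differed between the cell types was tested in the fit of all 12 libraries. None of the 10 genes passed in edgeR's test with Benjamini-Hochberg adjustment, where 0.109% of 16588 genes were called, nor in DESeq2 or with the block, where 0.338% were called. At an unadjusted p under 0.05 there were 3 of the 10, and 1363 of all 16588 genes. Ighm differed by 0.76 on the log2 scale, with an adjusted p of 0.50, Ighg2c by -2.30 with 0.584 and Jchain by 1.25 with 0.605. For Ighd the difference was -0.57, with an adjusted p of 0.610 and a 95% interval of the fold of 0.454 to 1.001. A larger Ighd difference in B cells than in dendritic cells was therefore not shown.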

How the data were processed

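Every value comes from the raw counts that the authors deposited, whole numbers with 1 row per gene symbol and 1 column per library. Alignment with STAR, its version written as 0.12.2, and the build GRCm38 are given per the submitters' processing notes. What was used for counting, with which annotation, filter and strand setting, is not given in the sources used here. A deposited normalized table was not used.

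Samples were grouped and numbered by their titles. CPM was scaled by TMM over all 12 libraries (edgeR 4.0.16, R 4.3.3), and the low count filter was filterByExpr at its minimum count of 10 and total of 15. The strain effects were fitted on the 6 libraries of a cell type and the other contrasts on all 12, with edgeR's quasi-likelihood test and Benjamini-Hochberg adjustment over all genes tested, called at 0.05. Shares were tested with 2-sided exact permutation tests, whose smallest p is 0.1. Alternatives were DESeq2 1.42.0, RLE size factors, no filter, immunoglobulin rows left out of library sizes, a replicate block, a fit of all 12 libraries, shares per kilobase of exon, lambda shares with Iglc2 and Iglc3, and leave-one-out fits. A fit without both replicate 3 libraries of B cells was added after the data were seen. Libraries of a group differed by more than sampling noise in every pair (chi-square per gene of 3.12 or more).

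Deviations from the group mean were correlated between B cell libraries of the same number, at 0.602, 0.442 and 0.814, so the numbers were taken to pair them. Replicates 1 and 2 are not told apart, since the crossed values were 0.421 and 0.470, and the labels state no pairing. In dendritic cells the values were -0.0129, 0.0693 and 0.082, which is no pairing.

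The 10 genes, and 17 lists of markers and antibody pathways, were chosen with earlier results of these data known. The text names all 10 genes, other constant region rows, up to 4 called genes of a list and, of the 3 genes most like each of the 10 in expression, only some. Zfp318, Xist, Ddx3y, single markers and the plasma cell genes are named outside this rule and were chosen after their values were seen. Gene positions, exon lengths and sequences are from GENCODE M21 on GRCm38, in which all 10 genes were found. A few genes that this rule or these lists cover are not reported here.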

Additional observations from a re-analysis of the deposited data

How the results depend on the processing

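Among the 10 genes, the number called in B cells was 0 in edgeR, 1 in DESeq2, 3 with the replicate block, 2 without both replicate 3 libraries and 0 without any single library. In dendritic cells it was 0, with 4 called without the filter on low counts and 0 to 3 without single libraries. In the comparison of NOD.Idd2 dendritic cells with B cells it was 9, and 10 with the block, without the filter or without both replicate 3 libraries, and 9 to 10 without single libraries. Over all genes, 24 were called in B cells, 122 in DESeq2, 156 with the block, 42 in the fit of all 12 libraries, 46 without both replicate 3 libraries and 13 to 18 without single libraries. In dendritic cells 186 were called, 296 in DESeq2, 700 without the filter, 94 in the fit of all 12 and 63 to 332 without single libraries. For the difference between cell types 18 were called, 103 in DESeq2, 33 without the filter, 56 with the block and 7 to 19 without single libraries.

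These values changed sign. In B cells, Ighg2b was 0.014 and Iglc1 -0.018 without both replicate 3 libraries, and without single libraries Igkc ran from -0.20 to 0.16 and Iglc1 from -0.25 to 0.24. In dendritic cells, Ighd was -0.019 in the fit of all 12, Ighg2b -0.0021 and Igha 0.024 with the block. Without single libraries Ighd ran from -0.20 to 0.24, Ighg2b from -0.11 to 0.075, Ighg2c from -1.07 to 0.45, Ighg3 from -1.28 to 0.59 and Igha from -0.77 to 0.21. The difference between cell types ran from -1.36 to 0.35 for Ighg1 and from -0.34 to 0.63 for Igha. These are log2 values, and the cause was not tested. The strain difference of the switched share in B cells was 0.080 percentage points per kilobase and ran from -0.26 to 0.15 without single libraries. That of the Iglc1 share ran from -0.10 to 0.25 in B cells and from -0.22 to 0.92 in dendritic cells, where adding Iglc2 and Iglc3 made it -1.16. Ighd kept its direction in B cells in all 13 alternatives, from 0.42 to 0.63, with adjusted p-values from 8.29e-05 to 0.920. The dendritic cell block called none of the genes. Low counts limit Ighg1, Ighg2c, Ighg3 and Iglc1 in dendritic cells, and no statement on splicing, secretion or protein can be made from gene counts.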

Other observations

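The genes whose log2 CPM was most like that of the 10 across libraries are given as a description. Over the 6 B cell libraries, among 12636 genes, Ighm was most like Cd55 with a Pearson r of 0.997, Igkc like Gltp with 0.999, Igha like Ankrd52 with 0.999 and Jchain like Wdr44 with 0.999. Ighg2c was most like Procr, with 0.993, Ighg3 like Adamtsl2 with 0.992 and Ighg1 like Rabgap1l with 0.994. With 6 libraries and this many genes, the highest of all values is high for any gene. Over all 12 libraries, among 12710 genes, Igkc was most like Sdc1, with an r of 0.997, and Ighm like Rdh12, with 0.997, followed by Sdc1. These values hold the difference between the cell types, which the 12 libraries share.

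Within B cells, markers of other cell types also varied between libraries. With the block, Gzma, a protease of killer cells, had a log2 fold change of -0.85 and an adjusted p of 6.05e-03 in edgeR, Chil3, a monocyte gene, -1.84 and 0.0202, and Adgre1, a macrophage gene, 0.46 and 1.45e-03. DESeq2, which had no block, called Gzma with an adjusted p of 0.0388, Chil3 with 3.44e-03 and Adgre1 with 0.0421. Without the block edgeR called none of the 3. In that fit 3 of 9 genes of the red pulp macrophage list, which holds Adgre1, lay above 0, with a median log2 fold change of -0.11. Of the natural killer cell list 0 of 8 genes lay above 0, and of the monocyte list 0 of 7. The neutrophil list summed to 7.60 to 29.5 CPM in NOD and 7.20 to 11.3 CPM in NOD.Idd2, with a median log2 fold change of -1.18 and 0 of 6 tested genes above 0 or called. T cell markers summed to 60.3 to 73.5 CPM and to 42.6 to 111.7 CPM. The 8 natural killer cell markers summed to 25 to 35.4 CPM in NOD and 17.3 to 26.9 CPM in NOD.Idd2 B cells, and the part of these values in the antibody gene results was not tested.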
